A study of Bos taurus with 6 samples.

Results

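The genes of protein translocation into the endoplasmic reticulum (ER) and of N-glycosylation were followed in bovine blastocysts. They were 40 genes chosen by symbol from knowledge of the pathway, with earlier results of these data known. Each matched exactly 1 row among the 36075 rows of the table. Of the 40 genes, 37 reached the level required for testing, and TUSC3, UGGT1 and UGGT2 did not. The control group was blastocysts (Bos taurus) from slaughterhouse oocytes matured for 22 h in medium without melatonin (MT), and the MT-treated group came from oocytes matured in the same medium with 1e-07 mol/L MT. In both groups the oocytes were fertilized and cultured in vitro, and MT was present during maturation, not during embryo culture, as far as the methods state. Each group had 3 libraries from separate production runs, and each library was a pool of 3 whole blastocysts. Oocytes of a run were pooled and divided among the treatments, so runs may be shared by the groups, but the labels do not say which run a library came from. The comparison asks whether these genes differ between the MT-treated and the control blastocysts.

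A protein that is to be secreted, or to sit in a membrane of the secretory pathway, carries a signal sequence that the signal recognition particle binds while the ribosome is still translating. The particle docks at its receptor on the ER, the growing chain passes through the Sec61 channel, signal peptidase removes the signal sequence, and the oligosaccharyltransferase adds a preassembled sugar tree to asparagine residues. Glucosidases then trim the tree, the lectins calnexin and calreticulin hold the chain while it folds, and cargo lectins carry finished glycoproteins towards the Golgi. In a blastocyst this route makes the surface, junction and matrix proteins of the trophectoderm, and the trophoblast of ruminants secretes much protein.

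The libraries of the groups stood apart in more than these genes, and this touches each value below. Between 8854 and 8953 genes were above 0 in a control library and between 14372 and 14408 in an MT-treated library, and 33.8% of the 11953 tested genes were listed at 0 in every control library. Values were in TPM, the share of a gene among the transcripts of its library after scaling by gene length, which keeps no read counts, and the depth table of the study was not used here. A difference in library preparation or processing that follows the groups cannot be told apart from the MT treatment here. Because a total can be filled by different genes, each difference was also computed after centring every library on the median of the 5988 genes with at least 1 TPM in all libraries, which removed a shift of -0.48 (log2) from MT-treated relative to control, and after quantile normalization, which gives all libraries the same distribution. Over all tested genes the median difference was 1.12 (log2) as deposited, 1.597 after centring and 0.04 after quantile normalization. Trophectoderm markers were abundant in every library, summing to between 11336 and 11679 TPM in control and between 10506 and 10862 TPM in MT-treated libraries, of which KRT8 and KRT18 made up between 98.4% and 99.4%. KRT8 was the only marker of the 7 called lower as deposited, and it was called higher after centring. Of the other 6, CDX2 passed the filter through the MT group alone and 5 were called higher, with GATA2 at 7.07 ± 0.506 and 49.1 ± 1.29 TPM (SD, n = 3 each), and TEAD4 was not called after quantile normalization. CDX2 was at 0 throughout control and at 17.2, 15.0 and 16.1 TPM in the MT group. The inner cell mass list summed to between 251.05 and 252 TPM in control and between 338 and 341 TPM in MT-treated libraries. POU5F1, the largest part, averaged 190 TPM in control and 193 TPM in MT-treated libraries and was not called as deposited. KLF5 went from 43.9 to 48.6 TPM and KLF4 from 18.1 to 83.8 TPM. NANOG was at 0 in each control library, and NANOG and SOX2 passed the filter through the MT group alone. Hypoblast markers summed to between 0.2 and 0.44 TPM in control and between 53.5 and 57.5 TPM in MT-treated libraries. The MT-treated sum was nearly all GATA6 and PDGFRA, which passed the filter through the MT group alone. GATA4 was at 0 in all libraries, and SOX17 was at 0 in control and between 0.14 and 0.20 TPM in the MT group. Of 7 cumulus and granulosa markers, 6 were at 0 in all control libraries and 4 in all MT-treated libraries. The list summed to between 17.2 and 19.2 TPM in control and between 15.1 and 17.1 TPM in MT-treated libraries. Of 9 oocyte markers, 8 were at 0 in all control libraries and 5 in all MT-treated libraries. BMP15, MOS and ZAR1, at 0 in control, lay above 0 but under 1 TPM in the MT group. The oocyte sum lay between 45.5 and 49.3 TPM in control and between 21.8 and 24.2 TPM in MT-treated libraries, nearly all of it OOEP. The part of these marker differences in the results was not tested, and in pooled embryos fewer cells of a type and less RNA per cell cannot be told apart.

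Within that contrast, ER translocation and N-glycosylation genes were spread to both sides of no change. Of the 37 tested genes, 14 passed the test as higher in MT-treated embryos and 21 as lower (limma, adjusted p under 0.05), and 2, SSR2 and SPCS3, passed in neither direction. Across all tested genes 95.7% passed in either direction, 61.6% as higher and 34.1% as lower, so that a passed test says little about a single gene here and the size of the difference was counted as well. A difference of at least 2-fold was found upward in 4 genes (SRP9, SRP14, STT3B and PRKCSH) and downward in 11 (SRP54, SRPRA, SEC61A2, SEC62, SPCS2, SEC11C, RPN1, STT3A, MOGS, GANAB and CALR), against a background of 51.0% upward and 19.6% downward. The background holds many genes at 0 in control. Among the 5988 genes with at least 1 TPM in all libraries, which hold 36 of the 37, 36.4% were higher and 55.6% lower, and 15.7% and 27.2% were so by at least 2-fold. The 36 had nearly these shares, 38.9% and 55.6%, and 11.1% and 27.8% past 2-fold. The groups did not overlap for 35 of the 37, where 96.1% of all tested genes did not overlap. The median difference of the 37 was -0.14 (log2), 0.34 after centring and 0.04 after quantile normalization. None of the 37 was listed at 0 throughout a group. Across the 5988 genes the medians were -0.27, 0.21 and -0.43.

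The direction of 26 genes did not depend on the scaling. Under all 3 scalings 13 of them were higher and 13 lower, where the shares of all tested genes were 44.0% and 25.4%, and those of the 5988 genes with at least 1 TPM in all libraries 28.2% and 38.6%. Of the 36 members among these, 36.1% were higher and 33.3% lower. The other 11 genes (SRP68, SRPRB, SEC61B, SSR2, SPCS1, SPCS3, SEC11A, DDOST, DAD1, CANX and LMAN1) had no call, lost their call or turned their direction under at least 1 scaling. Most of the 40 genes were abundant. The median of the 37 was 139 TPM in control and 103 TPM in MT-treated blastocysts, against 4.81 and 14.9 TPM over all tested genes, and 36 and 34 of them lay above the median tested gene of the group. Replicates lay close together, with a median coefficient of variation of 2.10% (control) and 2.68% (MT-treated) for the 36 genes with at least 1 TPM in all libraries. The order of the levels was partly kept, with a Spearman correlation of 0.85 between the group means over the 37 genes and 0.47 over all tested genes, and 0.85 over the 36 against 0.70 over the 5988, which are correlations across genes that share libraries and are given as a description.

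**Figure D1:**
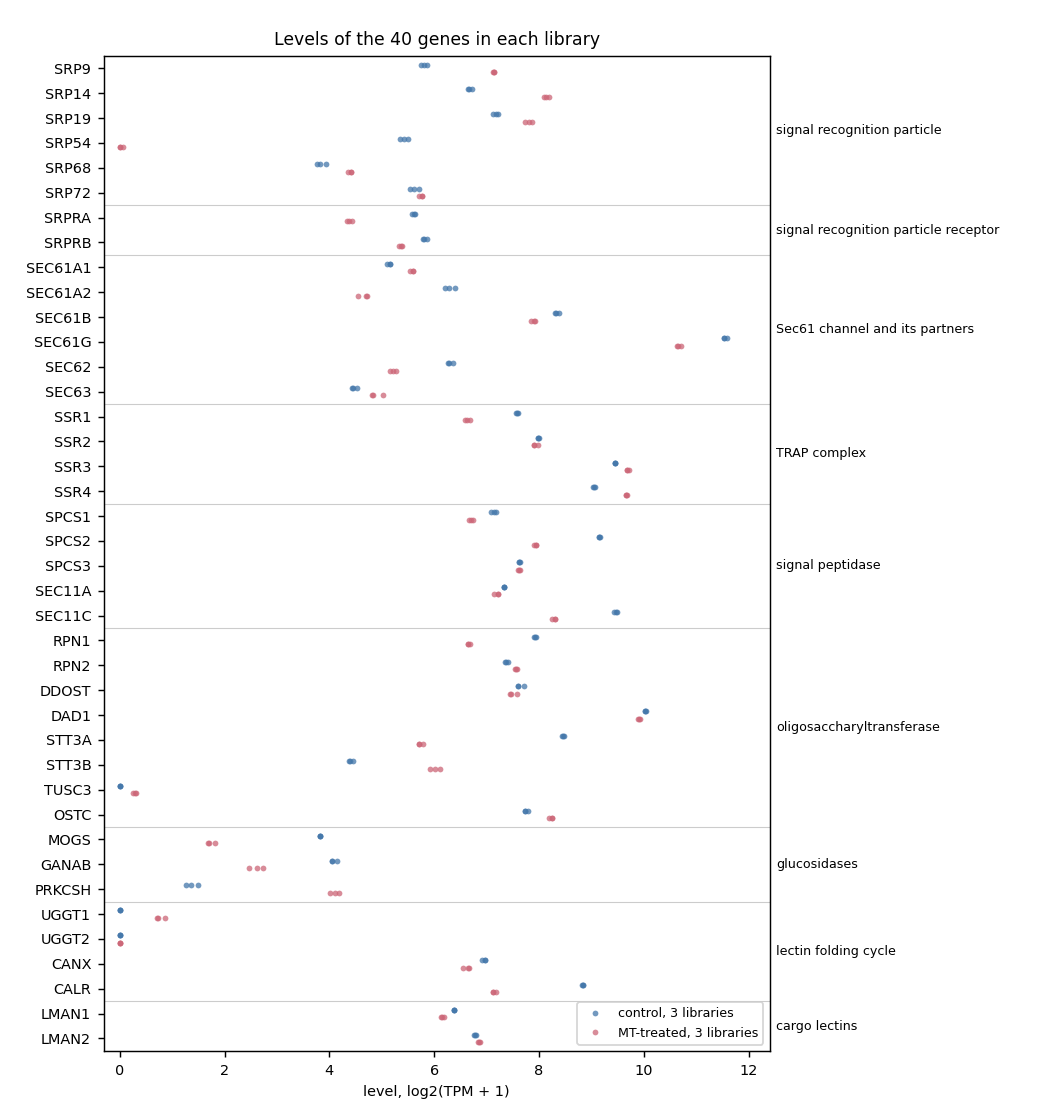
Level of each of the 40 genes, as log2(TPM + 1), in the 3 control libraries (blue points) and the 3 MT-treated libraries (red points), with genes grouped by role. The 3 points of a group lie close together for each gene, SRP54 drops to the left edge in the MT-treated libraries, and UGGT2 lies at 0 in all libraries.

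The signal recognition particle, which pauses translation and brings the ribosome to the ER, had 1 subunit listed at or next to 0 in the MT group and 5 that were higher. SRP54 (ENSBTAG00000019085) encodes the GTPase that binds the signal sequence. It was measured at 42.2, 44.3 and 39.7 TPM in control libraries 1 to 3 and at 0, 0.04 and 0 TPM in MT-treated libraries 1 to 3. The groups lay far apart, but SRP54 passed the level filter through the control group alone, so no p-value is given for it. A listed 0 can also be a failed estimate in a table without read counts, in which 360 tested genes were at 0 in every MT-treated library and 4037 in every control library.

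SRP9 (ENSBTAG00000033322) and SRP14 (ENSBTAG00000014353) encode the pair of proteins that slows translation. SRP9 had 54.8, 56.9 and 52.6 TPM in control and 141, 138 and 140.4 TPM in MT-treated blastocysts, 2.55-fold higher with groups far apart (log2 difference 1.34, standard error 0.03, limma adjusted p = 5.32e-08). SRP14 had 99.6, 100.3 and 104.1 TPM in control and 289.6, 279 and 274 TPM in MT-treated blastocysts, 2.77-fold higher (log2 difference 1.46, standard error 0.03, limma adjusted p = 2.10e-08). The ratio of SRP14 to SRP9 was 1.85 ± 0.112 without and 2.01 ± 0.0536 with MT (SD, n = 3 each), and the libraries overlapped in it. SRP19, which helps SRP54 onto the RNA of the particle, rose from 143 ± 5.20 to 222 ± 9.79 TPM (SD, n = 3 each, limma adjusted p = 9.53e-06). SRP68 and SRP72 bind each other and the RNA. SRP68 went from 13.3 ± 0.879 to 20.0 ± 0.404 TPM (SD, n = 3 each, limma adjusted p = 5.22e-05), and did not pass after quantile normalization. SRP72 went from 48.2 ± 2.87 to 52.8 ± 1.03 TPM (SD, n = 3 each, limma adjusted p = 0.0327). Its call was lost with any 1 of 5 libraries left out (adjusted p between 0.0540 and 0.0968 by limma), all but control library 1.

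The receptor of the particle was lower. SRPRA (ENSBTAG00000014105), the GTPase subunit that meets SRP54, had 46.7, 47.8 and 48.4 TPM in control and 19.1, 20.45 and 19.7 TPM in MT-treated blastocysts. No MT-treated value reached a control value (2.41-fold lower, log2 difference -1.23, standard error 0.03, limma adjusted p = 9.16e-08), and the gene remained lower under each scaling. SRPRB, the subunit that anchors SRPRA in the membrane, went from 55.4 ± 1.62 to 40.01 ± 0.696 TPM (SD, n = 3 each, limma adjusted p = 8.80e-06), a difference of -0.46 (log2) that centring brought to 0.02.

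The Sec61 channel is built of an alpha, a beta and a gamma subunit, and SEC62 and SEC63 assist chains that enter after translation. The alpha subunit is encoded by SEC61A1 and SEC61A2, and these moved in opposite directions. SEC61A2 (ENSBTAG00000019508) had 72.9, 76.7 and 82.8 TPM in control and 22.4, 25.5 and 25.1 TPM in MT-treated libraries, 3.19-fold lower (log2 difference -1.63, standard error 0.07, limma adjusted p = 7.65e-07). SEC61A1 (ENSBTAG00000004937) had 34.7, 33.4 and 34.8 TPM in control and 47.3, 45.7 and 47.6 TPM in MT-treated libraries, 1.37-fold higher (log2 difference 0.44, standard error 0.03, limma adjusted p = 9.59e-06). SEC61A2 was thus the more abundant alpha transcript in each control library and the less abundant in each MT-treated library. Its share of the summed alpha transcripts was 69.3% ± 1.38 without and 34.1% ± 1.83 with MT (SD, n = 3 each). The sum of both fell short of the control level, at 71.2 ± 1.51 against 112 ± 5.17 TPM (SD, n = 3 each).

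SEC61G, the gamma subunit, was the most abundant of the 40 genes in every library, at 2983 ± 63.4 against 1626 ± 46.1 TPM (SD, n = 3 each). It was 1.83-fold lower in MT-treated blastocysts (log2 difference -0.88, standard error 0.03, limma adjusted p = 1.27e-07), and lower after centring and quantile normalization too. SEC61B, the beta subunit, went from 322 ± 7.63 to 237 ± 6.20 TPM (SD, n = 3 each, limma adjusted p = 6.29e-06), and was not called after centring. The transcripts were far from equal within the channel, since the level of SEC61G per length was 26.7 ± 1.47 times the summed alpha level in control and 22.8 ± 0.737 times in MT-treated libraries (SD, n = 3 each). SEC62 had 77.1, 80.7 and 75.6 TPM in control and 36.3, 37.6 and 34.9 TPM in MT-treated libraries, 2.15-fold lower (log2 difference -1.08, standard error 0.04, limma adjusted p = 3.70e-07). SEC63, its partner, rose from 21.2 ± 0.768 to 28.9 ± 2.50 TPM (SD, n = 3 each, limma adjusted p = 0.000852), so that SEC62 and SEC63 moved apart under every scaling.

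The TRAP complex, which sits beside the channel and helps some signal sequences to engage, also held subunits that moved in opposite directions. SSR1, its alpha subunit, fell from 191 ± 3.19 to 98.6 ± 3.04 TPM (SD, n = 3 each, limma adjusted p = 1.49e-07). SSR3 rose from 699 ± 2.91 to 828 ± 12.3 TPM (SD, n = 3 each, limma adjusted p = 3.76e-06) and SSR4 from 529.6 ± 8.69 to 810.0 ± 6.26 TPM (SD, n = 3 each, limma adjusted p = 6.51e-08). SSR2 had 254 ± 2.90 TPM in control and 244 ± 7.27 TPM in MT-treated blastocysts (SD, n = 3 each, limma adjusted p = 0.0685), with overlapping groups. SSR2 was called higher after centring and after quantile normalization, and lower without MT-treated library 3 (adjusted p = 0.00523 by limma).

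Signal peptidase showed no rise as deposited. SEC11A and SEC11C encode alternative catalytic subunits, and the fall was in the more abundant of them. SEC11C (ENSBTAG00000011954) had 721, 711 and 693 TPM in control and 314, 314 and 302 TPM in MT-treated libraries, 2.29-fold lower (log2 difference -1.19, standard error 0.02, limma adjusted p = 2.17e-08). SEC11A went from 159.7 ± 0.295 to 145 ± 3.79 TPM (SD, n = 3 each, limma adjusted p = 0.00124), a small difference that turned upward after centring and after quantile normalization. SEC11C still made up most of the catalytic transcripts, 81.6% ± 0.337 in control and 68.1% ± 0.934 in MT-treated libraries (SD, n = 3 each). SPCS2, an accessory subunit, had 575, 567 and 564 TPM in control and 243, 246.5 and 237 TPM in MT-treated libraries, 2.35-fold lower (log2 difference -1.23, standard error 0.02, limma adjusted p = 6.15e-09). SPCS1 went from 139 ± 4.42 to 103 ± 2.43 TPM (SD, n = 3 each, limma adjusted p = 1.51e-05) and was not called after centring. SPCS3, at 197 ± 1.58 and 195 ± 2.08 TPM (SD, n = 3 each), had the smallest difference of the 37 genes as deposited (-0.01, limma adjusted p = 0.477), and it was called higher after centring and quantile normalization.

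The catalytic subunits of the oligosaccharyltransferase moved in opposite directions. The subunit is either STT3A, which works at the channel on chains still being made, or STT3B, which can act on sites that were missed. STT3A (ENSBTAG00000007203) had 353, 349 and 346 TPM in control and 54.2, 51.4 and 51.3 TPM in MT-treated blastocysts. The groups lay far apart, and STT3A was 6.68-fold lower (log2 difference -2.72, standard error 0.03, limma adjusted p = 1.29e-09). STT3B (ENSBTAG00000007438) had 19.6, 20.1 and 20.8 TPM in control and 68.4, 59.4 and 63.7 TPM in MT-treated blastocysts, 3.17-fold higher (log2 difference 1.61, standard error 0.06, limma adjusted p = 3.14e-07). STT3B thereby went from 5.46% ± 0.201 to 54.9% ± 1.16 (SD, n = 3 each) of the catalytic transcripts, while their sum was 369.6 ± 3.33 TPM in control and 116 ± 5.99 TPM in MT-treated blastocysts (SD, n = 3 each).

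The subunits that hold the enzyme together moved less. RPN1, a core subunit, had 241, 238 and 246 TPM in control and 99.2, 99.2 and 102 TPM in MT-treated libraries, 2.41-fold lower (log2 difference -1.26, standard error 0.02, limma adjusted p = 9.67e-09). RPN2, another core subunit, rose from 165 ± 3.30 to 189 ± 2.98 TPM (SD, n = 3 each, limma adjusted p = 0.000189). OSTC, which links the STT3A form to the channel, rose from 215 ± 4.20 to 299 ± 8.61 TPM (SD, n = 3 each, limma adjusted p = 4.14e-06), while STT3A itself fell. DAD1 went from 1045 ± 12.3 to 965 ± 12.0 TPM (SD, n = 3 each, limma adjusted p = 0.000249), and turned upward after centring. DDOST went from 198 ± 9.98 to 179.6 ± 8.78 TPM (SD, n = 3 each, limma adjusted p = 0.0332), a call that was lost without control library 3 or without MT-treated library 1 or 2 (adjusted p between 0.0812 and 0.114 by limma) and whose direction turned after centring and quantile normalization. TUSC3 and MAGT1 are the alternative oxidoreductase subunits of the STT3B form. TUSC3 was at 0 in control throughout and had 0.24, 0.22 and 0.19 TPM in the MT group, while MAGT1, which is not among the 40, had 54.6, 52.5 and 52.1 TPM in control and 55.4, 55.5 and 51.0 TPM in MT-treated blastocysts (limma adjusted p = 0.603), and was called higher after centring (0.50, log2) and quantile normalization (0.34). MAGT1 thus made up nearly all of this pair in both groups, with a share of TUSC3 of 0% without and 0.399% ± 0.0300 with MT (SD, n = 3 each).

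**Figure D2:**
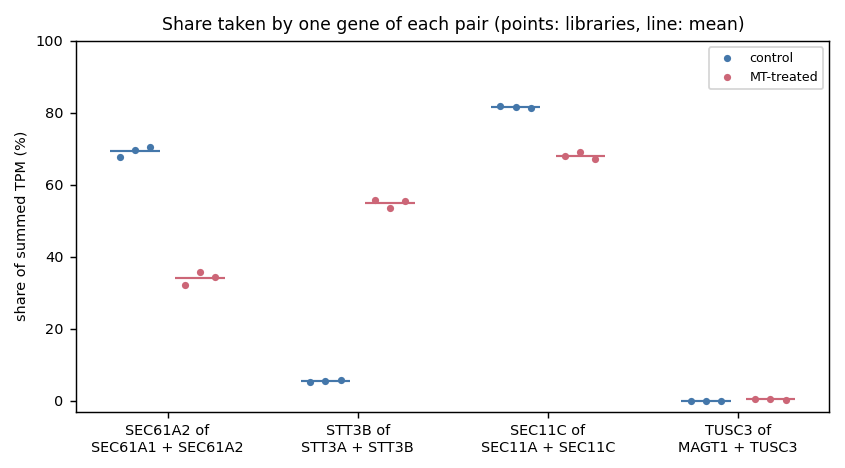
Share of the summed TPM (%) taken by SEC61A2, STT3B, SEC11C and TUSC3, each with its alternative gene, in control (blue) and MT-treated (red) libraries, with a line at the mean of 3 libraries. The share of STT3B rises from near 5.46% to 54.9%, the share of SEC61A2 falls from 69.3% to 34.1%, and TUSC3 stays near 0.

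A share within a library does not depend on the library's total or on centring. For SEC61A2, STT3B, SEC11C and TUSC3 the control and MT-treated shares did not overlap (exact permutation test, two-sided, p = 0.1 for each and 0.1 after adjustment over the 4 pairs). With 3 libraries a group the test cannot give a smaller p, so it could not pass 0.05. Across all tested genes 96.1% did not overlap between the groups either, so absence of overlap says little about a pair. TUSC3 lay under the level required for testing and was at 0 in control, so any MT-treated values above 0 gave no overlap. No share could be formed for UGGT1 and UGGT2, since both were listed at 0 in control.

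Trimming of the sugar tree begins with glucosidase I (MOGS) and goes on with glucosidase II, whose catalytic subunit is GANAB and whose lectin subunit is PRKCSH. All 3 changed by at least 2-fold as deposited, and they were among the less abundant of the 40 genes. MOGS (ENSBTAG00000001844) had 13.2, 13.2 and 13.1 TPM in control and 2.24, 2.54 and 2.23 TPM in MT-treated blastocysts, 5.64-fold lower (log2 difference -2.09, standard error 0.05, limma adjusted p = 3.65e-08). GANAB (ENSBTAG00000016956) had 16.7, 15.5 and 15.5 TPM in control and 4.50, 5.62 and 5.12 TPM in MT-treated blastocysts, 3.13-fold lower (log2 difference -1.48, standard error 0.08, limma adjusted p = 2.40e-06). PRKCSH (ENSBTAG00000008202) had 1.82, 1.41 and 1.58 TPM in control and 17.2, 15.1 and 16.3 TPM in MT-treated blastocysts, 10.1-fold higher and the largest rise among the 37 tested genes as deposited (log2 difference 2.72, standard error 0.08, limma adjusted p = 1.08e-07). The rise of PRKCSH was 1.01 (log2) after quantile normalization, in which the largest rise was that of STT3B (1.70). The subunits of glucosidase II therefore moved in opposite directions under each scaling. PRKCSH made up 9.13% ± 0.760 of their summed TPM in control and 76.1% ± 3.22 in MT-treated libraries (SD, n = 3 each), a share that was formed after the values were seen and was not tested.

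In the lectin folding cycle, calnexin (CANX) is bound to the membrane and calreticulin (CALR) is its soluble counterpart, and both hold glycoproteins that carry a single glucose. CALR (ENSBTAG00000015114) had 457, 452 and 456 TPM in control and 138, 138 and 144 TPM in MT-treated blastocysts, 3.25-fold lower (log2 difference -1.69, standard error 0.02, limma adjusted p = 3.80e-09). CANX (ENSBTAG00000048107) had 119, 125 and 125 TPM in control and 92.8, 99.5 and 99.9 TPM in MT-treated blastocysts, 1.26-fold lower (log2 difference -0.33, standard error 0.04, limma adjusted p = 0.000144). The difference of CANX was 0.15 (log2) after centring and no longer called after quantile normalization, whereas CALR was lower under each. The ratio of CALR to CANX went from 3.70 ± 0.107 to 1.44 ± 0.0502 (SD, n = 3 each). UGGT1, the folding sensor that puts the glucose back, was at 0 in control throughout and had 0.63, 0.82 and 0.65 TPM in the MT group. Its paralog UGGT2 was listed at 0 in all libraries. Both lay under the level required for testing.

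The cargo lectins, which carry glycoproteins from the ER to the Golgi, differed by little. LMAN1 went from 82.6 ± 0.176 to 70.2 ± 1.07 TPM (SD, n = 3 each, limma adjusted p = 3.76e-05), and was higher after centring and quantile normalization. LMAN2 rose from 109 ± 0.770 to 115 ± 1.42 TPM (SD, n = 3 each, limma adjusted p = 0.00469), a difference of 0.08 (log2).

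**Figure D3:**
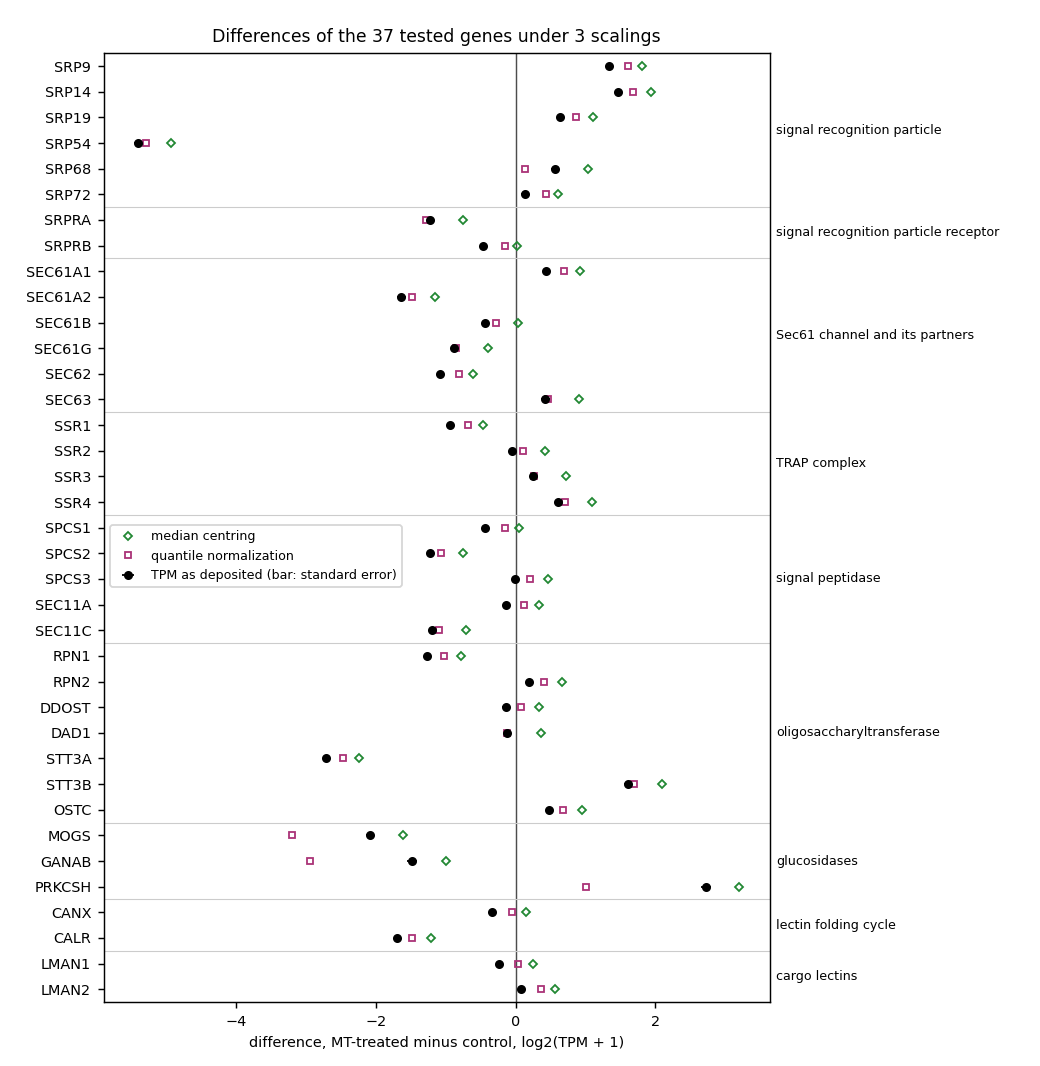
Difference between MT-treated and control blastocysts, in log2(TPM + 1), of each of the 37 tested genes as deposited (black points, bar for the standard error), after median centring (green diamonds) and after quantile normalization (purple squares). STT3A, SRP54, MOGS, GANAB, CALR and SEC61A2 lie left of 0 under all 3 scalings and PRKCSH, STT3B, SRP14 and SRP9 right of it, while 11 genes change their call or their side with the scaling.

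Summed over the 40 genes, the level was 10453, 10604 and 10448 TPM in control and 8027, 8088 and 8027 TPM in MT-treated libraries, which is 1.11% to 1.13% and 0.878% to 0.886% of all listed TPM. By role, the sum went in both directions. It was 1.78-fold higher in MT-treated libraries for the signal recognition particle, at 716 ± 17.1 against 403 ± 8.86 TPM, and 1.18-fold higher for the TRAP complex, at 1981 ± 22.9 against 1672 ± 8.15 TPM (SD, n = 3 each). It was 2.43-fold lower for the lectin folding cycle, at 238 ± 6.87 against 578 ± 2.96 TPM, of which CALR was the larger part in both groups. The sum was 1.76-fold lower for Sec61 and its partners, 1.78-fold lower for signal peptidase and 1.21-fold lower for the oligosaccharyltransferase. With the centring shift added to the sums, which was chosen after the data were seen, the log2 ratio of MT-treated to control turned from -0.27 to 0.21 for the oligosaccharyltransferase, and from -0.38 to 0.10 for the 40 genes together. It remained negative for Sec61 (-0.34), signal peptidase (-0.35) and the lectin folding cycle (-0.80). Such a sum follows its most abundant gene, and SEC61G alone was 84.8% ± 0.145 of the Sec61 sum in control and 81.3% ± 0.431 in MT-treated libraries (SD, n = 3 each).

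**Figure D4:**
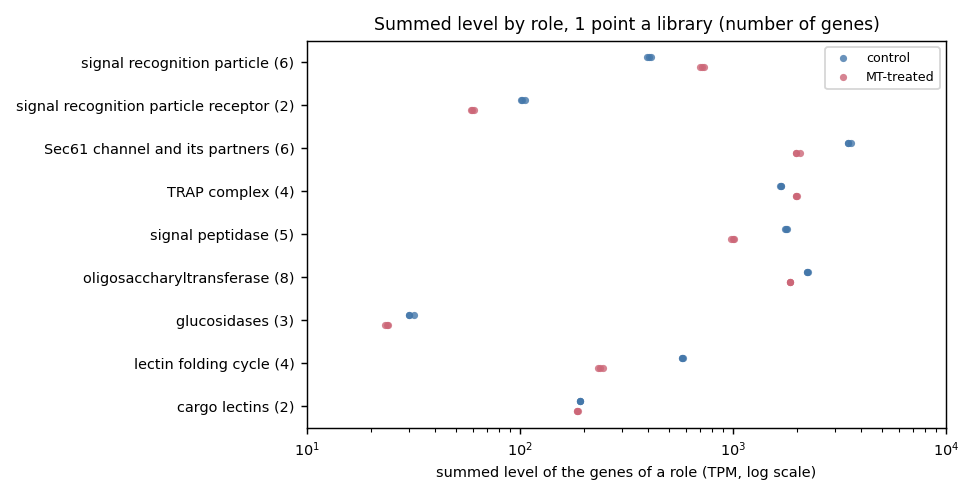
Summed level (TPM, log scale) of the genes of each role, with 1 point for each control library (blue) and each MT-treated library (red) and the number of genes in parentheses. The signal recognition particle and the TRAP complex lie higher in MT-treated libraries, at 716 and 1981 TPM on average, and the lectin folding cycle lies lower, at 238 against 578 TPM.

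Genes that act before, beside and after these 40 were taken from 5 lists, also chosen with earlier results of these data known. All 79 of them found in the table were tested, 38 higher (48.1%) and 40 lower (50.6%), beside 61.6% and 34.1% of all tested genes. Of the 79, 14 lay under 1 TPM in every control library and TMED1 in every MT-treated library, and these passed the filter through 1 group alone. Of the 64 with at least 1 TPM in all libraries, 37.5% were higher and 60.9% lower, beside 36.4% and 55.6% of all such genes. The sugar tree is assembled on the lipid dolichol before it is transferred, and of 22 genes of this assembly 11 were higher and 11 lower, and 6 of the higher were at 0 throughout control. Of the 16 with at least 1 TPM in all libraries 5 were higher (31.2%) and 11 lower (68.8%), beside 36.4% and 55.6% of all such genes. With quantile normalization 6 were higher (27.3%) and 16 lower (72.7%), where 46.4% and 44.4% of all tested genes were, and 33.2% and 59.2% of the 5988 with at least 1 TPM in all libraries. DPAGT1 (ENSBTAG00000005371), which adds the first sugar, had 65.8, 63.05 and 66.6 TPM in control and 9.95, 8.46 and 8.78 TPM in MT-treated blastocysts, 7.19-fold lower (log2 difference -2.72, standard error 0.06, limma adjusted p = 3.85e-08). ALG9, a mannosyltransferase of the same chain, was at 0 in control throughout and had 18.0, 17.45 and 19.5 TPM in the MT group.

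Partners of the channel and of the oligosaccharyltransferase had 10 of 13 genes lower (76.9%) and 2 higher (15.4%), all at 1 TPM or more, where 55.6% and 36.4% of such genes were. After centring 6 were higher and 6 lower (46.2% each), beside 53.6% and 38.6% of such genes. TRAM1 (ENSBTAG00000007562), a membrane protein next to the channel, had 119, 115 and 118 TPM in control and 20.9, 23.45 and 21.6 TPM in MT-treated blastocysts, 5.34-fold lower (log2 difference -2.37, standard error 0.05, limma adjusted p = 1.88e-08). HSPA5, the chaperone BiP that pulls chains inward and is induced in ER stress, had 379, 379.5 and 384 TPM in control and 229.7, 238 and 236 TPM in MT-treated blastocysts, and was lower under each scaling (1.63-fold as deposited, log2 difference -0.70, standard error 0.02, limma adjusted p = 6.25e-08). CCDC47, part of the machinery for proteins that span the membrane many times, rose 3.45-fold, from 10.3 ± 0.382 to 35.6 ± 1.29 TPM (SD, n = 3 each, limma adjusted p = 5.82e-08).

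Other routes into the ER membrane do not need Sec61 in the same way. They are the ER membrane complex, the GET pathway for tail-anchored proteins and TMEM208 of the SND route. Of their 17 genes 12 were higher (70.6%) and 5 lower (29.4%), beside 61.6% and 34.1% of all tested genes. After quantile normalization 12 were higher (70.6%) and 4 lower (23.5%), beside 46.4% and 44.4% of all tested genes. EMC9, of the ER membrane complex, was at 0 throughout control. Of the 15 genes with at least 1 TPM in all libraries 10 were higher (66.7%) and 5 lower (33.3%), where 36.4% and 55.6% of such genes were. Their median difference was 0.81 (log2), against -0.27 for such genes, and that of all 17 was 1.21, against 1.12 for all tested genes. GET1 (ENSBTAG00000013629), a subunit of the membrane receptor of the GET pathway, had 0.05, 0.20 and 0.03 TPM in control and 21.8, 23.0 and 24.0 TPM in MT-treated blastocysts, and passed the filter through the MT group alone. CAMLG, the other receptor subunit, fell in the opposite direction, from 165 ± 3.09 to 51.0 ± 2.11 TPM (SD, n = 3 each, limma adjusted p = 2.72e-08).

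Mannosidases of the ER and the Golgi trim the N-glycan further, and transferases of the Golgi then add sugars to it. Of 10 genes of these kinds 5 were higher and 5 lower, beside 61.6% and 34.1% of all tested genes. Of the 5 higher, 3 were at 0 throughout control. Quantile normalization gave 4 higher and 6 lower, beside 46.4% and 44.4% of all tested genes. As deposited, 2 were higher and 5 lower of the 7 with at least 1 TPM in all libraries. Of all such genes 36.4% were higher and 55.6% lower. MAN1A1, a mannosidase of the Golgi, fell from 57.3 ± 1.22 to 2.75 ± 0.252 TPM (SD, n = 3 each, limma adjusted p = 4.73e-09), while MAN1B1, an ER mannosidase, was at 0 in control throughout and had 10.75, 11.9 and 12.25 TPM in the MT group. Of 17 cargo receptors and retrieval receptors, 8 were higher (47.1%) and 9 lower (52.9%), beside 61.6% and 34.1% of all tested genes. After centring 10 were higher (58.8%) and 7 lower (41.2%), beside 70.4% and 25.4% of all tested genes. Quantile normalization gave 6 higher (35.3%) and 9 lower (52.9%), beside 46.4% and 44.4%. Of the 8 higher as deposited, 3 (ERGIC2, ERGIC3 and TMED5) were at 0 throughout control. Of the 13 with at least 1 TPM in all libraries 5 were higher (38.5%) and 8 lower (61.5%), near the 36.4% and 55.6% of such genes. ERGIC3, which cycles between ER and Golgi, was at 0 in control throughout and had 46.9, 48.1 and 47.2 TPM in the MT group. TMED1, a member of the p24 family of cargo receptors, had 64.8, 61.6 and 67.7 TPM in control and 0.55, 0.50 and 0.58 TPM in MT-treated blastocysts.

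**Figure D5:**
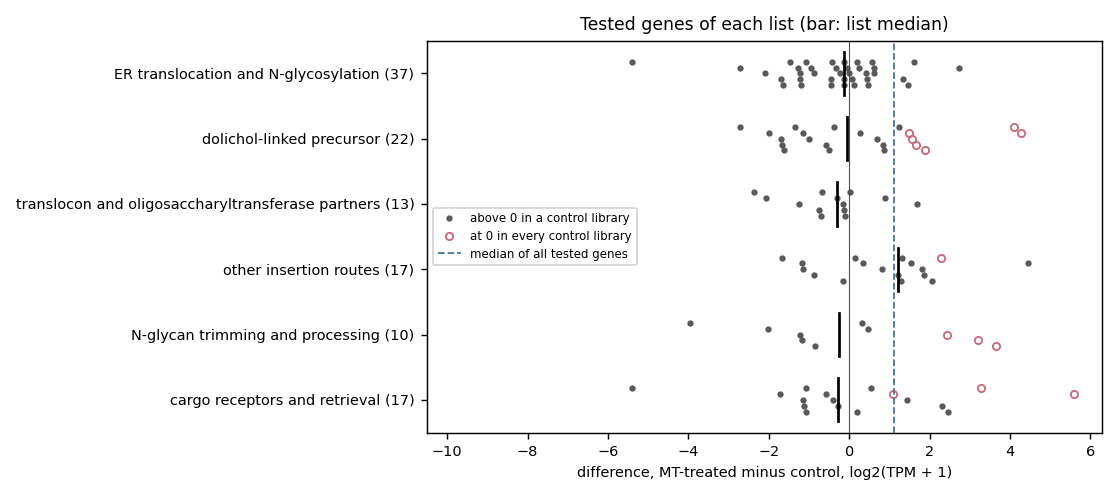
Difference between MT-treated and control blastocysts, in log2(TPM + 1), of each tested gene of ER translocation and N-glycosylation and of 5 related lists (points, with open red circles for genes at 0 in every control library), with a black bar at each list's median and a dashed line at 1.12, the median of all tested genes, which was -0.27 for genes with at least 1 TPM in all libraries. Each list spans both sides of 0, the medians of the 37 genes and of 4 related lists lie between -0.30 and -0.05, and that of the other insertion routes lies at 1.21.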

How the data were processed

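The authors filtered reads with fastp and FastQC 0.11.9, aligned them with STAR 2.7.9a, counted genes with featureCounts (Subread 1.6.3) and deposited TPM rounded to 2 decimals. The genome is ARS-UCD1.3 in the paper and ARS-UCD1.2 in the submitters' processing notes, and the library chemistry is Smart-seq2 in the paper and TruSeq in the labels. How counts became TPM is not given in the sources used here, and TPM keep no counts, so no counting error is given. The study reports sequencing depth in a supplementary table, which was not used here.

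Groups came from the sample titles, and 0 value columns were left unmapped. The 11953 genes that reached 1 TPM in 3 or more libraries entered the fit as log2(TPM + 1) by limma 3.58.1 (R 4.3.3; lmFit, then eBayes with a trend on intensity), with Benjamini-Hochberg adjustment over all genes and a threshold of 0.05. Fold changes in words are ratios of mean TPM, and log2 differences are on the log2(TPM + 1) scale, which understates changes of low genes. The fit was run on simulated data in which 200 of 11953 genes were changed. It recovered 78% of changes of 0.5 (log2) and 93% of changes of 1. In the data 95.7% of genes were called, so the simulation does not describe the calls here. Paralog shares used exact permutation tests. Summaries used Python 3.11.15, pandas 2.3.3 and numpy 2.4.6, and figures matplotlib 3.10.9.

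The members and lists were chosen with earlier results of these data known. All 40 genes were named, with library values for those past 2-fold without overlap, those at 0 in a group, and SEC61A1, STT3A, STT3B, CANX and CALR. From each related list the highest and lowest called gene was named, plus HSPA5 and MAGT1. The related lists held 85 symbols, of which 6 matched no row (WRB and ASNA1 are older symbols of GET1 and GET3, which matched). AMH of the marker lists matched none. Same-numbered control and MT-treated libraries (the labels tie no number to a production run) did not deviate together (correlations over all tested genes -0.01, -0.0007 and 0.06), so libraries were treated as unpaired. Promoter motifs were not counted, and no sequences were used here. The alternatives are given in the closing section.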

Additional observations from a re-analysis of the deposited data

How the results depend on the processing

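Counts of calls in the 40 genes did not move by over 1.5 times with 0.1 TPM added, without the level filter, with a filter at 5 TPM, without the intensity trend, with genes above 0 in all libraries or with any 1 library left out, nor did they under quantile normalization (17 higher and 17 lower). Median centring gave 21 higher and 13 lower, and 7 higher and 6 lower by at least 2-fold. It turned the direction of SRPRB (0.0198), SEC61B (0.0362), SSR2 (0.42), SPCS1 (0.0490), SPCS3 (0.47), SEC11A (0.34), DDOST (0.34), DAD1 (0.36), CANX (0.15) and LMAN1 (0.25), given as log2 differences, and quantile normalization turned SSR2 (0.11), SPCS3 (0.20), SEC11A (0.12), DDOST (0.0817) and LMAN1 (0.0404). The construction of centring, an equal shift of every gene, accounts for the first group, and the cause of the second was not tested. The median difference of the genes was 0.34 after centring, 0.0404 after quantile normalization and between -0.179 and -0.125 with 1 library left out, against -0.14, and it moved by more than the replicate spread of 0.0363 without MT-treated library 3. With the replicate number as a block, 13 genes were higher and 22 lower, and the block gave SSR2 a call and took that of SRP72, whereas same-numbered libraries did not deviate together. The centring shift, added to the sums by role after the data were seen, turned the log2 ratio of the sum for the 40 genes (0.0952), the oligosaccharyltransferase (0.206), the glucosidases (0.101) and the cargo lectins (0.433). Over all tested genes, 3085 were higher by at least 2-fold with quantile normalization, and restriction to genes above 0 in all libraries left 2814 higher, 1539 of them by at least 2-fold, and 3626 lower, so that 43.7% of the calls were higher. In the related lists that restriction left 25 higher, 13 by at least 2-fold, and centring left 12 lower by at least 2-fold. Higher genes made up 40% of the calls in the 40 genes, 61.8% after centring and 50% after quantile normalization, and 64.4%, 73.5% and 51.1% over all tested genes. The 4 paralog shares tested moved in the reported direction with 1 TPM added, with 1 library left out and, for the 3 pairs whose genes were tested, with quantile normalization. For TUSC3, at 0 in every control library, the direction with 1 library left out was fixed in advance. The TPM keep no read counts, and the depth table of the study was not used here, so values under 1 TPM, as for TUSC3 and UGGT1, have no stated precision.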

Other observations

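The signal recognition particle holds an RNA as well as its proteins, and the table lists 25 rows for copies of that RNA, examined after the values of the protein subunits were seen. Of these rows, 17 were at 0 in all libraries and 5 were tested. ENSBTAG00000047947 had 58.4, 64.8 and 61.0 TPM in control and 91.8, 112 and 94.35 TPM in MT-treated blastocysts (log2 difference 0.68, adjusted p = 0.000281 by limma), and was higher after centring and quantile normalization as well. ENSBTAG00000061067 carried the same 6 values, so both rows are 1 measurement, and reads of near-identical copies cannot be assigned with certainty. ENSBTAG00000049700 and ENSBTAG00000066315 were also called higher as deposited, as were 61.6% of all tested genes. ENSBTAG00000068554 was called higher too, but had 0, 0 and 2.36 TPM in control and passed the filter only through the MT group. After quantile normalization ENSBTAG00000068554 was not called, and ENSBTAG00000049700 went from a log2 difference of 0.53 to -1.04 and was not called.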
